A study of Homo sapiens with 11 samples.

Results

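The regions described here are the CUT&RUN peaks in HEK293T cells whose summit lay more than 100 kb from the nearest RefSeq gene of any kind, on chromosomes 1 to 18, 20 to 22 and X and without the short arms of the acrocentric chromosomes. They were chosen by position alone. They number 1224 of the 5435 peaks in the 5 deposited lists, or of 4107 peaks on the chromosomes named. The edit_myc_FLAG list gave 307 of them, myc_FLAG 372, endog_myc 381, the mouse IgG list (ms_IgG) 92 and the rabbit IgG list (rbt_IgG) 72.

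In CUT&RUN an antibody bound in permeabilised cells recruits a nuclease, and the short DNA fragments cut loose around it are sequenced. HEK293T is an established human embryonic kidney line. The 3 target lists stand for 3 libraries each: those labelled edit_myc_FLAG and myc_FLAG, for which the labels' protocols give a mouse anti-FLAG antibody, and those labelled endog_myc, for which they give a rabbit anti-myc antibody. The mouse IgG and rabbit IgG libraries, 1 of each, are the controls with no specific target. The labels give no treatment, clone or time point, and they do not say what "edit" stands for.

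MYC is a transcription factor that pairs with MAX to bind short DNA motifs, mostly at promoters and enhancers, and an enhancer can lie far from the gene it acts on. Much of the gene-free sequence of human chromosomes is of another kind. Centromeres, where the kinetochore forms, are built on long arrays of a tandem repeat, alpha satellite, flanked by other satellites and by pericentromeric duplications that are rich in pseudogenes. On hg38 many of these arrays are represented by modelled sequence, and a short read from a repeat can match many copies. The sources used here do not say how reads with several equally good placements were treated.

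Most of these regions lay at centromeres. A region was assigned to a centromere when its summit lay inside a cytogenetic band of the kind that marks one. In edit_myc_FLAG 244 of the 307 regions lay inside such a band, or 79.5% (95% Wilson interval 74.6 to 83.6). In myc_FLAG it was 311 of 372 (83.6%, 79.5 to 87.0), and in endog_myc 328 of 381 (86.1%, 82.3 to 89.2). In the IgG lists the share was lower, with 65 of 92 regions inside a band in mouse IgG (70.7%, 60.7 to 79.0) and 46 of 72 in rabbit IgG (63.9%, 52.4 to 74). The mouse IgG interval overlapped that of edit_myc_FLAG and not those of myc_FLAG and endog_myc, and the rabbit IgG interval overlapped none of the target lists. The lower IgG shares depend on where a band ends. With bands padded by 2 Mb the shares were 95.8%, 97.3% and 97.6% in the target lists, 96.7% in mouse IgG and 94.4% in rabbit IgG. Among the regions of the same lists that lay nearer to genes, the share inside a band was 5.39% for edit_myc_FLAG, 10% for myc_FLAG, 9.49% for endog_myc, 22.8% in mouse IgG and 21.4% in rabbit IgG. Genes are sparse in these bands, so the 100 kb rule by itself draws on them.

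Regions far from genes were almost absent outside the surroundings of centromeres. The sequence more than 100 kb from any gene forms 943 separate stretches with 215.7 Mb in all, assembly gaps included. Of these, 60 stretches come within 2 Mb of a centromeric band and hold 108.8 Mb, and the other 883 lie on chromosome arms and hold 106.9 Mb, nearly as much. The stretches near centromeres held 302 edit_myc_FLAG regions, 368 myc_FLAG regions and 379 endog_myc regions, which is 2.78, 3.38 and 3.48 per Mb. They also held 92 mouse IgG and 71 rabbit IgG regions, which is 0.846 and 0.653 per Mb. The stretches on the arms held 5, 4 and 2 regions of the 3 target lists, none of mouse IgG and 1 of rabbit IgG, and no list reached 0.05 per Mb there. The name gene-poor therefore fits these regions by distance, but by position nearly all are centromeric or pericentromeric.

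**Figure D1:**
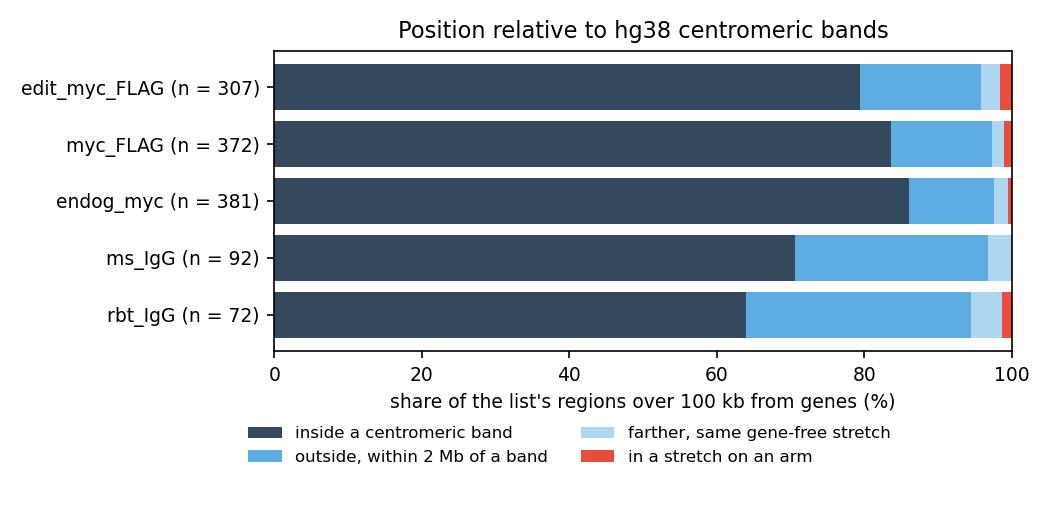
Share of the regions over 100 kb from genes in each list (horizontal axis, percent, 1 bar per list) by position: inside a centromeric band, outside but within 2 Mb of one, farther along a stretch that comes within 2 Mb of one, or on an arm. Regions inside a band make up the largest class in all 5 lists, from 63.9% in rabbit IgG to 86.1% in endog_myc.

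A few stretches supplied most of the regions. All 1224 lay in 32 of the 943 stretches. The chromosome 1 stretch between EMBP1, a pseudogene of embigin, and LOC101929814, from 121571888 to 143299518, alone held 528, or 43.1%, and the 10 fullest stretches held 1124, or 91.8%. The chromosome 1 stretch gave 143 regions in edit_myc_FLAG, 159 in myc_FLAG, 172 in endog_myc, 33 in mouse IgG and 21 in rabbit IgG. A stretch on chromosome 10, from 38719382 to 42149319, gave 33, 35, 40, 9 and 7 in the same order. One on chromosome 17, from 22705636 to 26981692, gave 25, 26, 27, 12 and 10. In these stretches the 3 target lists stood close together. They did not everywhere: edit_myc_FLAG had 8 regions in a chromosome 4 stretch (49589728 to 51833884), where myc_FLAG had 21 and endog_myc 20. Of the 32 stretches, 25 held regions of edit_myc_FLAG, 25 of myc_FLAG, 22 of endog_myc and 13 of each IgG list.

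The stretches differed in how far the IgG lists shared them. After regions of the 5 lists were joined into loci wherever they overlapped by at least 1 bp, 11 of the 14 loci in a chromosome 16 stretch (34433114 to 34978722) held an IgG region, or 78.6%. In the chromosome 17 stretch it was 16 of 33 (48.5%), and in the chromosome 1 stretch 41 of 277 (14.8%). A chromosome 11 stretch, from 50420631 to 54591480, had 4 edit_myc_FLAG, 15 myc_FLAG and 12 endog_myc regions on 20 loci and no region of either IgG list. No test was run between stretches.

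**Figure D2:**
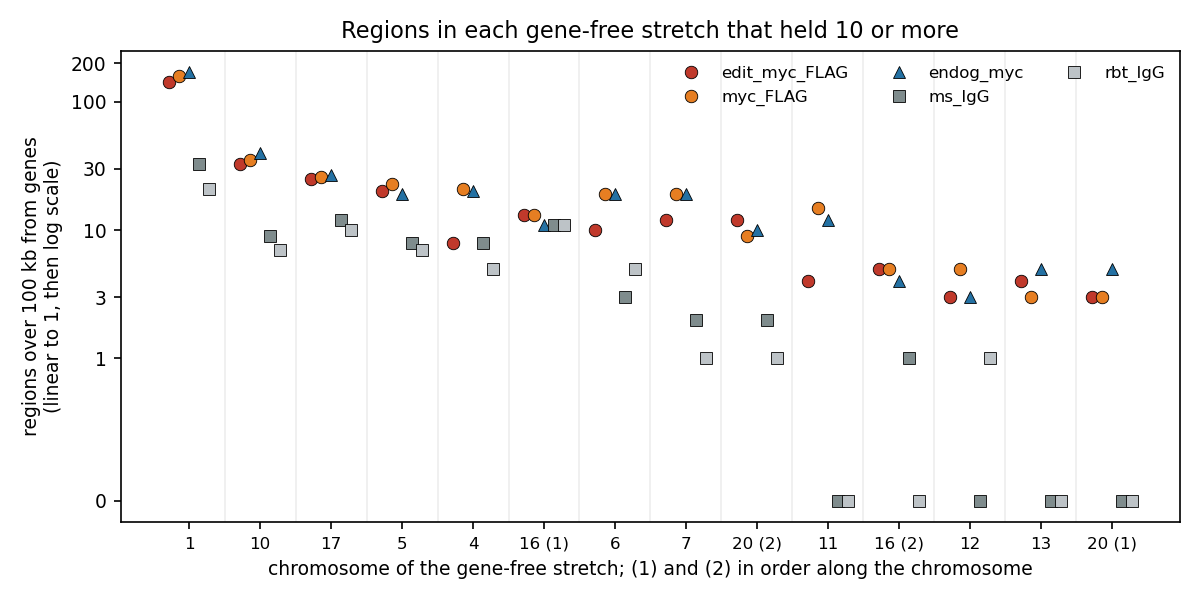
Number of regions over 100 kb from genes (vertical axis, linear from 0 to 1 and logarithmic above) in each gene-free stretch that held at least 10 (horizontal axis, by chromosome), 1 point per list. The chromosome 1 stretch stands highest in every list, and the chromosome 11 stretch has both IgG points at 0.

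The share of a list that lay far from genes was lowest in edit_myc_FLAG. It was 17.7% of the 1735 regions there (16.0 to 19.6), 39.5% of 942 in myc_FLAG (36.4 to 42.6), 38.0% of 1003 in endog_myc (35 to 41.0), 42.8% of 215 in mouse IgG (36.4 to 49.5) and 34.0% of 212 in rabbit IgG (27.9 to 40.6). The interval of edit_myc_FLAG did not overlap any other, while those of myc_FLAG and endog_myc overlapped each other and both IgG lists. In numbers of regions edit_myc_FLAG was less far from the other target lists, with 307 against 372 and 381. Cut to the 942 regions of highest significance, edit_myc_FLAG had 25.7% and endog_myc 39.5% far from genes, beside the 39.5% of myc_FLAG. Cut to 212 regions each, the shares were 37.3% in edit_myc_FLAG, 50% in myc_FLAG, 46.2% in endog_myc, 43.4% in mouse IgG and 34.0% in rabbit IgG. Without the chromosome 1 stretch the full lists gave 10.5%, 28.3% and 26.1% for edit_myc_FLAG, myc_FLAG and endog_myc. Read depth is unknown from the lists, each list merges its replicates, and the intervals cover counting error only, with neighbouring regions not independent.

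In the 3 target lists, regions far from genes stood higher in significance than the rest. The −log10 q of the authors' caller, which grows as a peak is less easily given by the local background, reached 5 in 223 of the 307 edit_myc_FLAG regions, or 72.6%, against 45% of all regions of that list. It did so in 78.2% of the myc_FLAG regions against 66.3% of the whole list, and in 73.8% of the endog_myc regions against 64.4%. In rabbit IgG the share was 81.9% against 70.3%, with intervals that overlapped, and in mouse IgG it was near that of the whole list, 81.5% against 80%. The medians of −log10 q were 8.49, 10.4 and 10.2 in the 3 target lists, against 4.05, 6.29 and 5.93 over the regions nearer to genes. The fold enrichment, a ratio over local background computed by the same caller, differed less. Its median was 5.79 in edit_myc_FLAG against 5.27 nearer to genes, 5.72 against 5.40 in myc_FLAG, and 5.59 against 5.38 in endog_myc. In mouse and rabbit IgG it was 6.30 and 6.86, against 5.49 and 5.63.

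High folds were more frequent far from genes. A fold of at least 10, a limit set after the values were seen, was reached by 52 edit_myc_FLAG regions (16.9%), while 6.46% of all regions of that list reached it. It was reached by 72 myc_FLAG regions (19.4% against 11.6%) and by 64 endog_myc regions (16.8% against 9.97%). Of these high regions, 37, 38 and 39 overlapped an IgG region. Nearer to genes 33 of 60, 25 of 37 and 26 of 36 such regions did so, in the same order. The IgG lists also had more high folds far from genes. In mouse IgG 21.7% of the regions far from genes reached 10, against 7.32% nearer to genes, and in rabbit IgG 29.2% against 10.7%. Set against regions nearer to genes in the same way, edit_myc_FLAG had 16.9% against 4.20%. For myc_FLAG it was 19.4% against 6.49%, and for endog_myc 16.8% against 5.79%. The median width of all regions far from genes was 259 bp in edit_myc_FLAG (243 bp nearer to genes), 278.5 bp in myc_FLAG (295 bp) and 305 bp in endog_myc (307.5 bp). Inside the centromeric bands the medians were 242, 269 and 287.5 bp, and outside the bands the medians were 404, 407 and 470 bp.

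The comparison with IgG asks which of these regions also appeared without a specific antibody. Overlap with at least 1 IgG region was found for 91 edit_myc_FLAG regions (29.6%, 24.8 to 35), 100 myc_FLAG regions (26.9%, 22.6 to 31.6) and 100 endog_myc regions (26.2%, 22.1 to 30.9), so the 3 lists were alike within counting error. Over all regions of each list the shares were 14.2%, 26.6% and 24.8%. In myc_FLAG and endog_myc the regions far from genes thus overlapped IgG about as often as the whole list did. In edit_myc_FLAG the share was higher far from genes, and 10.9% of its regions nearer to genes overlapped IgG. By count the target lists were close nearer to genes, where 156, 151 and 149 regions had an IgG partner, in the order used above. The lists differed there in length, at 1428, 570 and 622 regions. The low share of edit_myc_FLAG nearer to genes thus goes with its longer list, and the 2 were not separated. In the other direction, 88 of the 92 mouse IgG regions (95.7%, against 94% of the whole list) and 71 of the 72 rabbit IgG regions (98.6%, against 97.6%) overlapped a target region. Each IgG list comes from 1 library and is shorter than any target list, so a region without an IgG partner here is not shown to be free of background.

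Overlap with IgG went with position and with distance to genes. Inside the centromeric bands an IgG partner was found for 25% of the regions in edit_myc_FLAG, while myc_FLAG had 23.2% and endog_myc 21.6%. Outside the bands but within 2 Mb of one the shares were 52.0%, 49.0% and 59.1%, over 50, 51 and 44 regions. Between 100 and 200 kb from a gene 48.8%, 50% and 50% overlapped IgG, and beyond 1000 kb 20.4%, 20.8% and 18.1%. Single stretches weigh on these shares. The chromosome 16 stretch held 11 regions with an IgG partner in each target list, and its rabbit IgG regions lay 139562 to 177064 bp from a gene. Distance was not separated from stretch. The median distance to the nearest gene was 1087325, 1099124 and 1234332 bp in the target lists, in the same order, and it was shorter in mouse IgG (743812 bp) and rabbit IgG (672442 bp).

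By their medians, the regions that overlapped IgG were stronger than those that did not. Their median fold was 8.09 in edit_myc_FLAG, 8.16 in myc_FLAG and 8.16 in endog_myc. Regions in all 3 target lists without an IgG partner had medians of 6.08, 5.73 and 5.90, those in 2 target lists 5.03, 5.17 and 5.06, and those in a single target list 5.11, 5.19 and 4.97. The median −log10 q was 44.3, 51.3 and 44.3 with an IgG partner, and lowest in a single list, at 4.98, 5.84 and 4.52. High folds were not confined to regions with an IgG partner. Of the regions with a fold of at least 10, 37 of 52, 38 of 72 and 39 of 64 had one. No test was run between these classes.

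**Figure D3:**
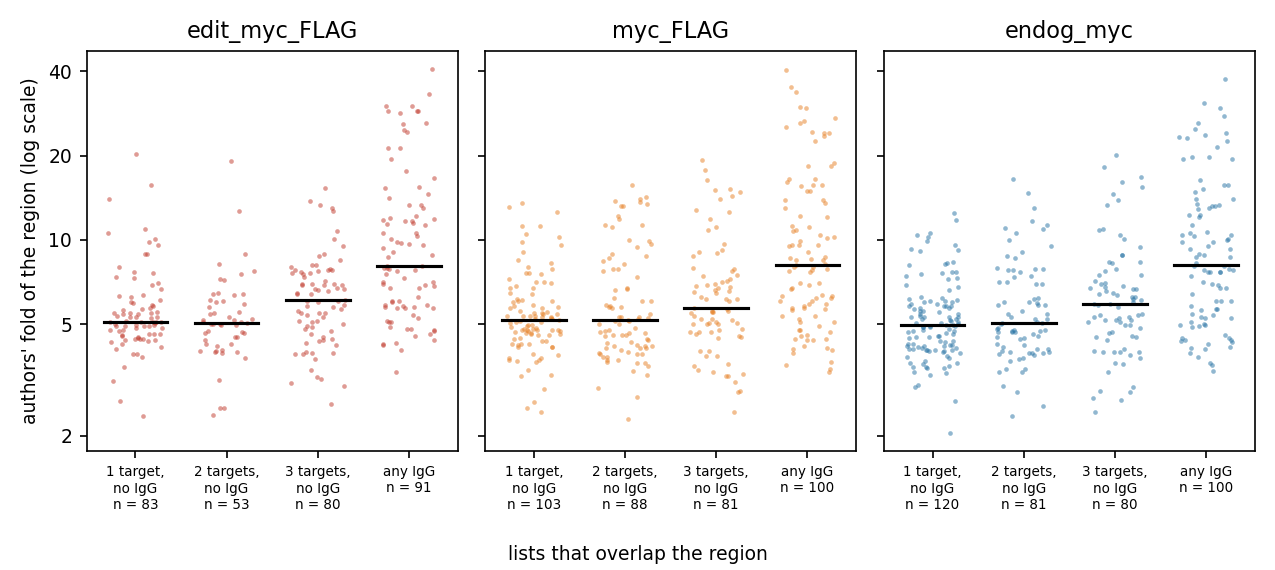
Fold enrichment of each region over 100 kb from genes, as the authors' caller gave it (vertical axis, logarithmic), with 1 panel per target list and 1 point per region, split by the lists that overlap it; black lines mark medians. Regions with an IgG partner have medians of 8.09, 8.16 and 8.16 in edit_myc_FLAG, myc_FLAG and endog_myc, above each class without one.

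The target lists shared most of these regions with one another. Overlap with at least 1 other target list was found for 223 edit_myc_FLAG regions (72.6%, 67.4 to 77.3), 266 myc_FLAG regions (71.5%, 66.7 to 75.9) and 258 endog_myc regions (67.7%, 62.9 to 72.2). Over all regions of the lists the shares were 42.1%, 73.6% and 70.9%. In edit_myc_FLAG the regions far from genes were shared more often than the rest, of which 35.6% were shared. Nearer to genes edit_myc_FLAG held 1428 regions, myc_FLAG 570 and endog_myc 622, while far from genes they held 307, 372 and 381. A long list beside shorter ones tends to a low shared share, and the shorter ones to a high share with it. List length was therefore not separated from sharing in the shares given here. In myc_FLAG and endog_myc the share was near that of the whole list, but the shares with each partner list differed. Overlap with edit_myc_FLAG was less frequent far from genes (53.2% against 67% nearer to genes for myc_FLAG, and 49.6% against 65.6% for endog_myc). Overlap between myc_FLAG and endog_myc was 62.6% against 59.6% as a share of myc_FLAG, and 61.2% against 53.9% as a share of endog_myc. Regions found in no other list, IgG included, numbered 83 in edit_myc_FLAG (27.0% against 57.7% of the whole list), 103 in myc_FLAG (27.7% against 25.9%) and 120 in endog_myc (31.5% against 28.8%). Only in edit_myc_FLAG was this share well below that of the whole list. Counted by locus, 306 of 607 were in 1 target list and no IgG list.

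Sharing was weaker once regions with an IgG partner were set aside. Of the remaining 216 edit_myc_FLAG regions, 51.4% overlapped myc_FLAG and 47.2% endog_myc, where 18.6% and 21.1% of its regions nearer to genes did so. Seen from the other 2 lists, overlap with edit_myc_FLAG was lower far from genes: 41.2% against 56.3% nearer to genes for myc_FLAG, and 36.7% against 55.4% for endog_myc. Between those 2 lists it was 50.7% against 46.1% for myc_FLAG in endog_myc, and 49.1% against 40% for endog_myc in myc_FLAG. List length enters here too. Nearer to genes 1272, 419 and 473 regions remained in edit_myc_FLAG, myc_FLAG and endog_myc, and far from genes 216, 272 and 281. The lists myc_FLAG and endog_myc share neither antibody nor label, and the same holds for each IgG list beside them. Of the mouse IgG regions far from genes, 89.1% overlapped myc_FLAG and 90.2% endog_myc. For rabbit IgG both shares were 97.2%. The cause of the overlap between myc_FLAG and endog_myc was not tested. The sources used here do not say whether the peak calls shared a control library.

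**Figure D4:**
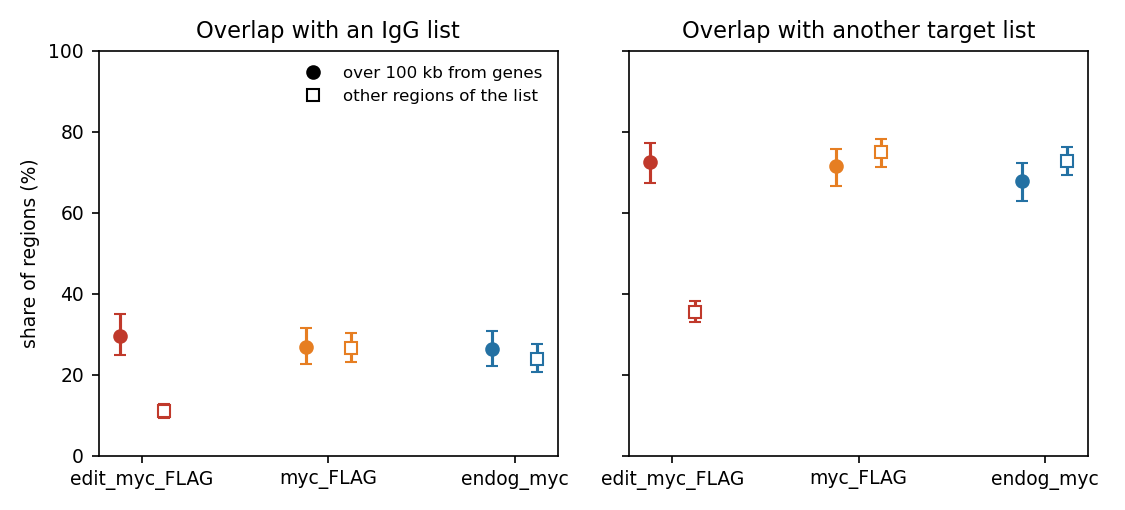
Percent of the regions over 100 kb from genes in each target list that overlap an IgG list (first panel) or another target list (second panel), as filled circles, beside the other regions of the list as open squares; bars are 95% Wilson intervals for counting error only. The 2 classes of regions stand far apart in edit_myc_FLAG (72.6% against 35.6% in another target list) and close together in myc_FLAG and endog_myc.

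Joined over the 5 lists, the regions formed 607 loci, of which 602 were in a target list and 527 inside a centromeric band. In 1 target list and no IgG list were 306 loci, in 2 target lists and no IgG list 110, and in all 3 target lists 164. Of those 164 loci, 84 held an IgG region and 80 did not. All 5 lists met at 48 loci. The commonest combinations were endog_myc alone (120 loci), myc_FLAG alone (103), edit_myc_FLAG alone (83), the 3 target lists without IgG (80) and myc_FLAG with endog_myc (57). The mouse IgG list stood alone at 4 loci and the rabbit IgG list at 1.

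**Figure D5:**
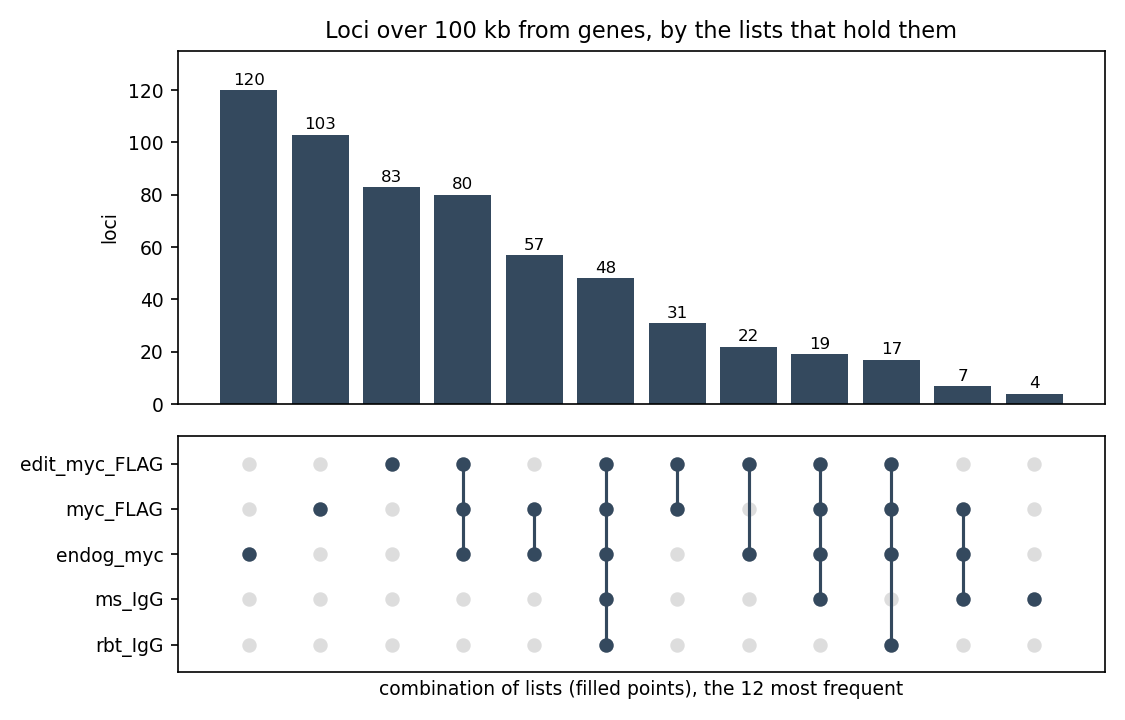
Number of loci (vertical axis, from 0) for each of the 12 most frequent combinations of lists, among 607 loci more than 100 kb from genes; filled circles under a bar mark the lists that hold the locus. Single target lists and the full set of 3 target lists lead, and 48 loci were in all 5 lists.

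Where 2 lists shared a locus, their summits were mostly close. The median gap between summits was 12 bp for edit_myc_FLAG and myc_FLAG over 197 loci, 15 bp for edit_myc_FLAG and endog_myc over 188, and 11 bp for myc_FLAG and endog_myc over 232. Mouse and rabbit IgG differed by a median of 9 bp over 51 loci. Summits lay within 50 bp of each other at 67.9% to 82.8% of the shared loci, depending on the pair of lists, IgG included. Nearer to genes no loci were formed. There each region of the list named first was set against the overlapping region of highest fold in the other list. The median gaps of those pairs of regions were 40, 41, 31 and 17 bp, in the same order of lists. The order of folds along the shared loci was also alike, with a Spearman correlation across loci of 0.868 for edit_myc_FLAG and myc_FLAG, 0.882 for edit_myc_FLAG and endog_myc, 0.923 for myc_FLAG and endog_myc, and 0.926 for the 2 IgG lists. Each target list correlated with each IgG list at 0.852 to 0.928 over 65 to 82 loci. The target lists among themselves ran from 0.868 to 0.923. Loci are not independent replicates, and all of them share a genome sequence and repeat content between lists.

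The strongest loci in all 3 target lists without an IgG region, ranked by the lowest of their 3 folds, lay inside centromeric bands of chromosomes 17, 1 and 7. The first, chr17:26101442-26101759, had a fold of 15.3 in edit_myc_FLAG, and the folds of myc_FLAG and endog_myc were 17.8 and 18.2. It lay 880093 bp from the pseudogene LOC100422478, and the nearest protein-coding gene was WSB1, a subunit of a ubiquitin ligase, at 1192515 bp. The locus chr1:124757565-124757886 had 13.8, 16.4 and 14.6 and lay 3185831 bp from EMBP1. On chromosome 7, chr7:59251598-59252003 had 13.3, 19.4 and 20.1, and its nearest protein-coding gene was the zinc finger gene ZNF716 at 1778156 bp. All 3 lists placed these loci well above their median fold.

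The remaining 5 loci ranked in the same way were on the same chromosomes, 3 of them on 17 and 2 on 7. They were chr7:60019424-60019755 with folds of 12.6, 12.6 and 13.9, chr17:26566935-26567153 with 13, 10.8 and 13.3, and chr17:23068716-23068935 with 10.8, 15.2 and 15.4, in the same order of lists. Lower still, chr7:59167469-59167870 had 9.48, 14.8 and 16.1, and chr17:24740193-24740392 had 8.88, 9.05 and 9.44. The one of the 8 nearest to a gene was chr17:23068716-23068935, at 363159 bp from the pseudogene WEE1P2.

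The loci found in all 5 lists reached higher folds than these. At chr3:93470362-93470799 the folds were 26.0 in edit_myc_FLAG, 24.1 in myc_FLAG, 23.7 in endog_myc, 23.0 in mouse IgG and 22.6 in rabbit IgG. At chr4:50555879-50556370 they were 28.8, 35, 30.9, 20.4 and 21.8 in the same order, and at chr10:41859499-41860339, outside the band but within 2 Mb of it, 28.9, 25.3, 24.0, 20.1 and 23.3. The IgG folds at these places were as large as those of the strongest regions that only target lists held. At chr6:58784601-58785200 the folds were 30, 26.1, 27.6, 18.4 and 18.1. The locus chr17:25920043-25920384 held the highest fold of each target list among the regions far from genes, at 40.8, 40.4 and 37.6, and had 20 in mouse IgG and 22.6 in rabbit IgG.

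Strong regions held by a single list were also centromeric. In edit_myc_FLAG the strongest that overlapped no other list were chr10:39967531-39967697 with a fold of 20.3, chr10:41124955-41125525 with 15.7 and chr7:58434505-58434734 with 14. In myc_FLAG they were chr7:58535771-58536097 with 13.5, chr11:52882969-52883150 with 13.1 and chr11:53190742-53191041 with 12.6, the last 2 in the stretch that had no IgG region. In endog_myc they were chr4:50662177-50662406 with 12.4, chr18:16265977-16266194 with 11.8 and chr17:24150882-24151298 with 10.6. All 9 lay inside a centromeric band. The strongest mouse IgG regions that overlapped no target region had folds of 9.48 at chr17:23583268-23583529 and 5.91 at chr3:91264136-91264465. They were drawn from 4 regions held by mouse IgG alone, against 83, 103 and 120 held by each target list alone. Highest folds from such unequal numbers cannot be compared. The median fold of regions held alone was 5.86 in mouse IgG, and 5.11, 5.19 and 4.97 in the target lists.

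The regions farthest from any gene were in all 5 lists. They lay on chromosome 1 just outside the centromeric band, about 3.6 Mb from EMBP1. At chr1:125182115-125183111, 3610494 bp away, the folds were 4.05 in edit_myc_FLAG, 3.47 in myc_FLAG, 3.63 in endog_myc, 3.33 in mouse IgG and 2.91 in rabbit IgG. At chr1:125178879-125180701 they were 8.68, 8.52, 7.81, 6.48 and 9.12, and at chr1:125167556-125168225 they were 11.7, 12.2, 10.3, 8.80 and 8.16. The first of these places had the lowest fold in all 5 lists. The third had the highest in the target lists and mouse IgG, while rabbit IgG was highest at the second.

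Just inside the 100 kb limit, a chromosome 17 place gave endog_myc chr17:26881028-26881592, 100265 bp from LOC100422478 with a fold of 4.59, and edit_myc_FLAG chr17:26881254-26881568, 100278 bp away with 5.11. Just outside it, a chromosome 20 place near DEFB115, a beta-defensin gene, gave edit_myc_FLAG chr20:31157182-31158434 at 99828 bp with 25 and myc_FLAG chr20:31157191-31158315 at 99826 bp with 19.4. The chromosome 17 place lay inside a centromeric band and the chromosome 20 place outside but within 2 Mb of one, and both had a region in all 5 lists.

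Only 9 loci lay on chromosome arms, away from any stretch near a centromere, and all but 1 were in target lists. They are described because they are the exception, a choice made after their values were seen. The only one in all 3 target lists was chr1:4303104-4303309, with a fold of 5.31 in edit_myc_FLAG, 5.18 for myc_FLAG, 7.47 for endog_myc and no IgG region. It lay 108780 bp from the long non-coding RNA gene LINC01777 and 351338 bp from AJAP1, which encodes an adherens junction protein. The highest fold on an arm was at chr10:128464372-128464616, with 19.2 in edit_myc_FLAG and 7.37 in myc_FLAG and no region in endog_myc or IgG. Its nearest gene was LOC124902558 at 144300 bp, and its nearest protein-coding gene was MKI67, the gene of the proliferation marker Ki-67, at 338106 bp.

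The other arm loci were held by 1 list each. The edit_myc_FLAG list held chr4:59519095-59519277 with a fold of 5.07, chr6:141052221-141052387 with 4.44 and chrX:145435882-145436105 with 5.71, the last 179861 bp from SPANXN1, a testis gene. The myc_FLAG list held chr17:13170853-13171058 with 4.23, whose nearest protein-coding gene was the tRNA-processing gene ELAC2 at 152851 bp, and chr21:27869226-27869421 with 4.14. The endog_myc list held chrX:87012972-87013175 with 5.31, 180464 bp from DACH2, a transcription cofactor gene. The −log10 q of these loci was low, from 1.43 at chr21:27869226-27869421 to 3.92 at chrX:145435882-145436105. The medians over all regions far from genes were 8.49, 10.4 and 10.2 in edit_myc_FLAG, myc_FLAG and endog_myc. The chromosome 21 value was the lowest of any myc_FLAG region far from genes. The rabbit IgG list held the ninth. None of the target regions on an arm overlapped an IgG region, over 5, 4 and 2 regions of the 3 lists, which is too few to set against the share inside the bands.

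The genes nearest to these regions were mostly pseudogenes. In edit_myc_FLAG 46.6% of the regions had a transcribed pseudogene as the nearest gene and 36.2% another pseudogene, in myc_FLAG 43.8% and 38.7%, and in endog_myc 47.8% and 36.2%. A long non-coding RNA gene was nearest for 9.45%, 8.33% and 8.14%, and a protein-coding gene for 7.82%, 9.14% and 7.87%. In mouse and rabbit IgG the protein-coding share was 12% and 12.5%. Of 13 genes of the MAX network, MYC and MAX among them, none was the nearest protein-coding gene of any of the 1224 regions. The regions lay in 32 stretches with few of the 20052 protein-coding genes as neighbours, so a match was unlikely from the start. Distance names a neighbour only and says nothing of which gene a region might act on.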

How the data were processed

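CUT&RUN peak lists from 11 HEK293T libraries were used: 1 list for the 3 libraries of each target group, and 1 for each IgG library. The submitters' processing notes name hg38, the aligner Bowtie2 2.4.5, the peak caller MACS3 3.0.0b1, SAMtools 1.15 and HOMER 4.10. Options, the control library and how replicates were merged: not given in the sources used here. For each peak the authors deposited a fold enrichment (a linear ratio) and a −log10 q. These belong to single peaks and served to describe, rank and filter regions. No counts were used, so depth is unknown.

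Positions are on hg38, counted from 1. Distances ran from each summit to the nearest of 59788 gene spans in a RefSeq table for GRCh38.p14. Some spans in it near chromosome ends may belong to alternate or patch sequences, such as LOC128966556, which ends at 409912 on chromosome 13. Chromosome 19, the acrocentric short arms, chromosome Y and unplaced contigs are not analysed here. Limits of the centromeric bands were written from memory to 0.1 Mb and were not checked against a file. Overlap meant at least 1 bp. Shares carry 95% Wilson intervals. No hypothesis test was run, because no list separates its replicates. No sequence of the regions was used.

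The members and lists were chosen with earlier results of these data known. Named loci followed a rule: the 8 loci in all 3 target lists without IgG and the 5 in all 5 lists with the highest lowest fold, the 3 strongest regions held by each target list alone, the 2 strongest held by each IgG list alone, the 3 loci farthest from genes, the 2 regions on each side of the distance limit, the 3 clusters with most loci, and any MAX network gene nearest to a region. Chromosome 8 regions were counted but not named. The fullest stretches and the arm loci were named after their values were seen. Alternatives were the distance limit, protein-coding genes only, distance from the region's edge, a −log10 q of at least 5, lists cut to equal length, overlap of at least 50% of both regions, summits within 100 bp, repeated intervals counted once, padded bands, chromosome 19 included and regions shared with IgG left out. Scripts used Python 3.11.15, pandas 2.3.3, numpy 2.4.6, scipy 1.17.1 and matplotlib 3.10.9 and were tested on simulated data.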

Additional observations from a re-analysis of the deposited data

How the results depend on the processing

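Of 190 values recomputed for 23 results, 112 were counted as the same and 78 as moved. For shares the limit was the Wilson interval. For median folds it was an interval of the median, which is narrower than the interquartile range. Counts of loci have no interval and were judged by their ratio to the main count. Against 48 loci in all 5 lists, 67 at 50 kb and 32 at 200 kb counted as the same. The cause of a move was not tested unless a setting's construction gives it. Values follow the order edit_myc_FLAG, myc_FLAG, endog_myc, mouse IgG, rabbit IgG. The share of a list far from genes was 22.1%, 45.4%, 44.5%, 56.3% and 47.6% with a limit of 50 kb, 15.2%, 35%, 33.8%, 32.1% and 24.5% with 200 kb, and 28.8%, 51.9%, 49.95%, 69.8% and 60.4% with protein-coding genes only, as those limits take in more or less sequence. With a −log10 q of at least 5 it was 28.6%, 46.6% and 43.5% in the target lists. With 942 regions it was 25.7% in edit_myc_FLAG, and with 212 regions 37.3%, 50% and 46.2%; edit_myc_FLAG had the lowest share of the target lists in each. The share inside bands was 68.4%, 75%, 76.7%, 58.7% and 51.5% at 50 kb, 89.4%, 90.3%, 93.2%, 84.1% and 80.8% at 200 kb, and 95.8%, 97.3%, 97.6%, 96.7% and 94.4% with bands padded by 2 Mb; it was 82.2% in endog_myc at a −log10 q of at least 5. IgG overlap with 212 regions per list was 79.7%, 65.1% and 72.4%, and with summits within 100 bp 24.4%, 21.5% and 21.5%. It was 35.5% in edit_myc_FLAG with 942 regions, and with protein-coding genes only 33.5% in myc_FLAG and 32.9% in endog_myc. Overlap with another target list was 87.3%, 81.1% and 89.8% with 212 regions and 60.3%, 64.8% and 60.9% with summits within 100 bp. It was 65.8% and 66.4% in the 2 FLAG lists with 50% of both regions, 78.9% in edit_myc_FLAG and 74.7% in endog_myc at a −log10 q of at least 5, 80.2% in edit_myc_FLAG with 942 regions, and 66.4% in edit_myc_FLAG and 72.3% in endog_myc with protein-coding genes only, which also gave 89 loci in all 5 lists. Median folds without regions shared with IgG were 5.33, 5.29 and 5.20, and for the IgG lists without regions shared with a target list 5.86 (4 regions) and 4.73 (1 region). The median was 5.46 in edit_myc_FLAG with protein-coding genes only and 8.34 in rabbit IgG at 200 kb. Leaving out the chromosome 1 stretch, chosen after seeing the data, gave shares of 10.5%, 28.3% and 26.1%, IgG overlap of 37.2% in edit_myc_FLAG and 31.1% in endog_myc, medians of 6.97, 6.999, 7.08 and 7.32 (mouse IgG), and 42 in place of 80 loci in all 3 target lists without IgG. Loci were joined at 1 bp in every setting. The counts of 80 loci in all 3 target lists without IgG and 48 in all 5 lists therefore stayed the same, largely by construction, with 50% of both regions or summits within 100 bp. No paired analysis was possible because each target list merges its 3 libraries, and for the same reason no replicate could be left out.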

Other observations

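The regions ran in dense series along the centromeric sequence. The median spacing of neighbouring summits within a stretch was 12.2 kb in edit_myc_FLAG, 14.2 kb in myc_FLAG and 13.7 kb in endog_myc, and 29.3 and 20.9 kb in mouse and rabbit IgG. When loci with midpoints within 50 kb of the next were chained, the longest cluster was chr1:122503461-124782328, which held 259 of the 607 loci inside the chromosome 1 centromeric band. Of those 259 loci, 129 were in edit_myc_FLAG, 146 in myc_FLAG and 157 in endog_myc, 53 were in all 3 target lists and 33 held an IgG region. The next clusters were chr10:41839702-41915116 with 24 loci, 14 of them in all 3 target lists and 8 with IgG, and chr5:49601157-49667335 with 17 loci, 13 in all 3 target lists and 8 with IgG. The chromosome 1 cluster was thus the least often shared of the 3, between target lists and with IgG.

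The chromosomes also differed in the height of their regions. The stretch on chromosome 17 had the highest median folds among stretches with at least 10 regions, at 12.95, 14.1 and 13.3 in edit_myc_FLAG, myc_FLAG and endog_myc, and one on chromosome 7, from 57868449 to 60991902, had 10.3, 11.2 and 10.4. In the chromosome 1 stretch, which held the most regions, the medians were 5.31, 5.09 and 4.88. The IgG lists differed in the same way. Mouse and rabbit IgG had medians of 11.7 and 14.8 in the chromosome 17 stretch and 5.51 and 5.94 in the chromosome 1 stretch. In the chromosome 7 stretch mouse IgG had 8.74 over 2 regions and rabbit IgG 14.1 in 1 region. The highest −log10 q was at another place, chr3:93470362-93470799, with 1016.5 in edit_myc_FLAG, 1339 in myc_FLAG, 1306 in endog_myc, 698 in mouse IgG and 372 in rabbit IgG. No cause of these differences between chromosomes was tested.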
